A study of Mus musculus with 2 samples.

Results

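Among 3072 thymocytes kept from both libraries, 127 were chosen by UMIs (unique molecular identifiers, each standing for 1 captured RNA molecule) of 5 genes of innate-like T cells and natural killer (NK) cells: Xcl1, Klrd1, Ccl5, Nkg7 and Il2rb. A cell was chosen when it held at least 3 UMIs over these genes, fewer than 10 over the antigen-presenting genes Cd74, H2-Aa and H2-Eb1, and at most 2 over Foxp3, Ikzf2, Tnfrsf4 and Tnfrsf9, which mark regulatory T cells. Kept cells had at least 400 detected genes and at most 10% mitochondrial UMIs. The measured values of the same cells thus picked these cells, so their levels against other cells are a description and no test was made. The label of innate-like T and NK cells could be checked only in part, since its defining genes were sparse or at 0 in all kept cells. A CD3 gene was detected in 126 of the 127, and Cd8b1 (a CD8 coreceptor chain) without Cd4 in 78. No gene of a list of 24 NK receptors and adaptors was detected in 77. These were 60.6% of the chosen cells, against 91.7% of the other kept cells, so list genes were detected more often in the chosen cells. The shares were not compared at equal depth. The 127 cells are called Nkg7-led cells here, after the gene with most of the marker UMIs, although 9 of them held no Nkg7.

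The cells were mouse thymocytes, for which the labels name no sort, measured on a droplet instrument that counts the 3' ends of polyadenylated RNA. One library came from wild type cells and the other from cells homozygous for mutations of both GATA sites (GS1+2) of NMe, a distant NOTCH-bound enhancer of the proto-oncogene Myc. Strain, age and the number of animals behind each library were not given in the sources used here. With 1 library per genotype there is no replicate, a difference between libraries cannot be told apart from a difference between genotypes, and all intervals below are 95% intervals of counting error only.

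NK cells and innate-like T cells, such as invariant NKT cells and some gamma-delta T cells, take on a ready effector program during development. They are known for the transcription factors PLZF (Zbtb16) and T-bet (Tbx21), lectin-like NK receptors and stored granule proteins. Conventional CD8 T cells share part of this program: Nkg7 encodes a cytotoxic granule membrane protein, Klrd1 the receptor chain CD94, Il2rb the beta chain of the IL-2 and IL-15 receptors, and Ccl5 and Xcl1 secreted chemokines. T-box factors (T-bet and EOMES) and RUNX3 are known regulators of cytotoxic genes in these lineages.

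Of the 5 marker genes, RefSeq promoter sequences of build GRCm38.p6 were matched for 2, Nkg7 and Xcl1, and Klrd1, Ccl5 and Il2rb are named only. Nkg7 supplied most of the marker UMIs and Xcl1 the fewest, and both matched sequences are shown. Each runs from 250 bases before the start of transcription to 50 after it, and capitals mark matches on either strand of the letters GGTGTGA (T-box) and TGTGGT (RUNX). The Nkg7 stretch lies at chr7:43436888-43437187 on the plus strand, and that of Xcl1 at chr1:164935473-164935772 on the minus strand. In the GENCODE M21 annotation of the same build, the gene Nkg7 spans chr7:43437073-43438249, Xcl1 chr1:164931644-164935527, Klrd1 chr6:129591782-129598775, Ccl5 chr11:83525778-83530518 and Il2rb chr15:78479256-78495271.
Nkg7: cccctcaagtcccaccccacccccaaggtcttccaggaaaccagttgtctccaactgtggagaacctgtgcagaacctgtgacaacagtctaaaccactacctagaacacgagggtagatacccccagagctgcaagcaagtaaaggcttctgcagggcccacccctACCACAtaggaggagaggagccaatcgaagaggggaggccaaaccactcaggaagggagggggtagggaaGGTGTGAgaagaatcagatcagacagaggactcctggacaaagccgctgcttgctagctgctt
Xcl1: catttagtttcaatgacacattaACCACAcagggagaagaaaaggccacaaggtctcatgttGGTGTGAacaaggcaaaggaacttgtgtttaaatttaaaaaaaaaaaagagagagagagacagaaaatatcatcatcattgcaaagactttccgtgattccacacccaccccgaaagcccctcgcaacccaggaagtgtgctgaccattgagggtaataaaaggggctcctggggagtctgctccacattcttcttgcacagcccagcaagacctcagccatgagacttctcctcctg
The T-box letters began 13 bases before the start of Nkg7 and 188 bases before that of Xcl1, and the RUNX letters 83 and 227 bases before. These distances are from the RefSeq starts. The GENCODE start of Nkg7 lies upstream of the RefSeq one, so by that annotation the T-box letters lie inside the gene. The matches do not overlap each other. Of 32851 RefSeq promoters of this length, 3.98% held the T-box letters and 16.8% the RUNX letters. A match describes letters and is not a binding site or a cause of expression.

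Nkg7 gave 604 of the 1088 marker UMIs, or 55.5%, and 104 of the 127 cells had at least 3 Nkg7 UMIs on their own. Its level, in CPM (the UMIs of the gene per 1000000 UMIs summed over the cells), was 981 in wild type and 1105 in mutant Nkg7-led cells, against 13.7 and 56.9 in the other kept cells of each library. A cell with Nkg7 held a median of 4 Nkg7 UMIs in each library, and the highest counts were 12 and 19. The spread of Nkg7 was thus narrow, and the rest of the choice rested on few cells.

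Ccl5 gave 331 marker UMIs, or 30.4%, from only 21 cells, and a single wild type cell held 60 of them. Its level was 745 CPM in wild type and 483 CPM in mutant Nkg7-led cells. Klrd1 had 90 UMIs in 40 cells, at 184 CPM in wild type and 142 CPM in mutant. Ccl5 was therefore high in few cells, whereas Klrd1 was spread thinly over more cells. Il2rb had 38 UMIs in 29 cells, at 80.2 and 58.6 CPM. Xcl1 had 25 UMIs in 12 cells, at 42.4 and 44.6 CPM. Of all 332 Xcl1 UMIs in kept cells, 7.53% lay in the Nkg7-led cells, against 67.2% of the Klrd1 UMIs and 58.5% of the Nkg7 UMIs. Only 1 marker gene was detected in 67 cells, 2 in 38 cells, 3 in 12, 4 in 9 and all 5 in 1 cell.

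**Figure D1:**
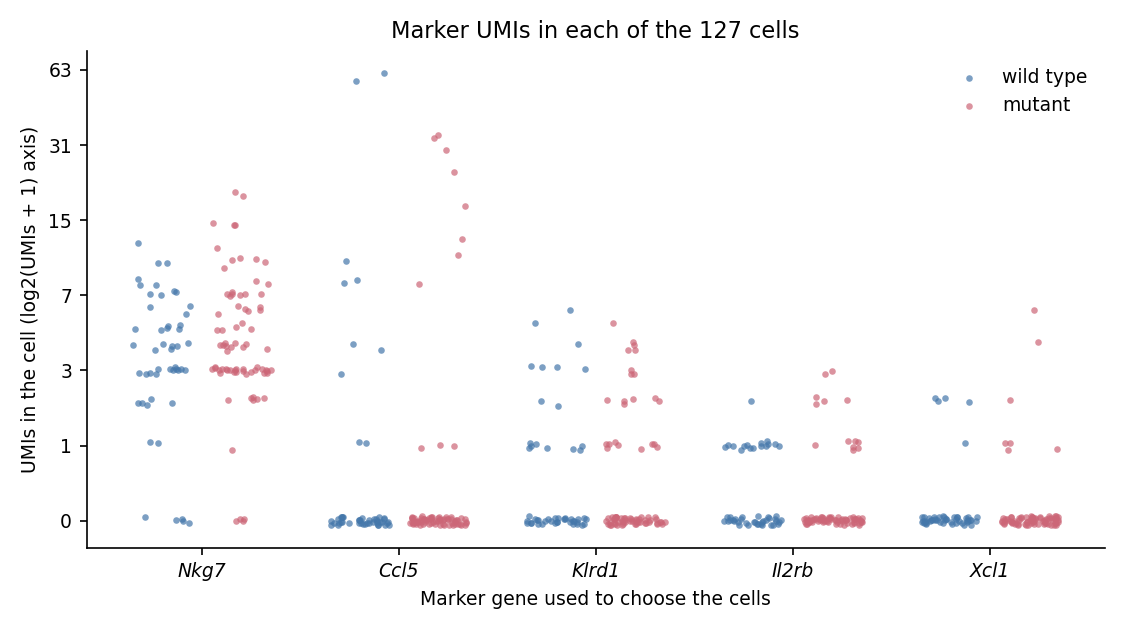
UMIs of each marker gene in each of the 127 chosen cells (points, slightly scattered so that they can be told apart), by library, on a log2(UMIs + 1) axis. Nkg7 was above 0 in 118 cells, whereas Ccl5 was at 0 in most cells and reached 60 UMIs in 1.

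The Nkg7-led cells made up 50 of 1341 kept wild type cells (3.73%, exact Clopper-Pearson interval 2.78% to 4.89%) and 77 of 1731 mutant cells (4.45%, 3.53% to 5.53%). Mutant minus wild type was 0.72 percentage points, with a Newcombe interval from -0.73 to 2.12. The interval includes 0, but whether it does depended on the rule and the depth. Depth differed between the libraries: the Nkg7-led cells had a median of 3815.5 UMIs in wild type and 4374 in mutant, against 3300 and 2554 in the other kept cells. With every cell thinned to 1500 UMIs before the choice, 19 of 1341 wild type cells (1.42%) and 41 of 1634 mutant cells (2.51%) qualified, and the difference was 1.09 points (0.07 to 2.11). With the same lowest UMI total in both libraries it was 1.63 points (0.05 to 3.23), with at least 2 marker UMIs 2.22 points (0.50 to 3.90) and with no exclusion by other genes 2.37 points (0.69 to 4.01). These 4 intervals lay above 0, and those of at least 5 marker UMIs and of both settings without likely doublets included 0.

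At the lower limit, 32 cells had exactly 3 marker UMIs and 65 cells just outside it had 2. Nkg7 stood at 719 CPM in the former and 344 CPM in the latter, and Cd8b1 at 727 and 460 CPM. Cells with 4 or more marker UMIs had 1149 CPM of Nkg7 and 887 CPM of Cd8b1. The rule itself orders these groups by Nkg7. Ly6c2, which it did not use, was at 25.1 CPM at 3 UMIs, 30.02 CPM at 2 and 286 CPM at 4 or more.

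The exclusion by other genes removed 12 wild type and 44 mutant cells that had enough marker UMIs, 1 of them by both gene sets. The 49 cells removed by the regulatory T genes held 292 Xcl1 UMIs, which is 88.0% of all Xcl1 UMIs in kept cells, and 366 UMIs of Ikzf2 (the factor Helios) but only 5 of Foxp3. Of these Xcl1 UMIs, 18 lay in wild type and 274 in mutant cells, in 16 cells in all, with up to 159 in 1 cell. They also held 6 of the 16 UMIs of Zbtb16. The 8 cells removed by the antigen-presenting genes, all mutant, held 202 Ccl5 UMIs and no Xcl1. Xcl1, the chemokine for dendritic cells that carry XCR1, was therefore measured here mainly in cells outside the Nkg7-led cells.

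The label was next compared with defining genes. No UMI was found in the 127 cells for the invariant NKT factor gene Zbtb16, the NK receptor and integrin genes Ncr1, Itga2 and Klrg1, the cytokine genes Ifng, Il4, Il13 and Il17a, the granzyme gene Gzmm or the factor gene Zfp683. Ncr1, Itga2, Klrg1 and Il17a had none in any barcode of either library, so their absence sets no cell apart, and the others were sparse too: Zbtb16 had 16 UMIs and Il4 8 in the other kept cells. A count of 0 among the 570496 UMIs of these cells allows up to 5.26 CPM (3 counts). Perforin (Prf1) had 1 UMI and granzyme B (Gzmb) 21 UMIs in 6 cells, with 38.1% of them in 1 cell. Of 24 NK receptor and adaptor genes, 5 had no UMI in these cells and 2 passed the filter for levels, Fcer1g and Tyrobp, both only through the Nkg7-led cells. The summed level of the 24 genes was 403 CPM against 47.9 CPM in other cells, with 566 CPM in wild type and 307 CPM in mutant. Without 1 wild type cell described below, it was 339 CPM over both libraries and 395 CPM in wild type. T cell receptor constant genes were not used here, and gamma-delta cells were not checked by their receptor.

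CD3 genes, which encode the invariant part of the T cell receptor, had a UMI in 126 of the 127 cells (99.2%) and in 98.4% of the other kept cells. At 1500 UMIs per cell the shares were 96.1% (exact interval 91.1% to 98.7%) and 95.2%. Cd8b1 had a UMI in 89 cells (70.1%), namely 39 of the 50 wild type and 50 of the 77 mutant cells. After thinning, the share was 56.7% (47.6% to 65.5%), against 52.1% of the other cells, so Cd8b1 detection alone hardly set them apart. The coreceptor CD4 gene was detected far less. Cd8b1 without Cd4 was found in 78 cells (61.4%, against 35.7% of the other cells) and Cd4 alone in 4 (3.15%, against 7.61%). Both were found in 11 (8.66%, against 29.98%) and neither in 34 (26.77%, against 26.76%). Cd4 stood at 40.3 CPM against 148 CPM in the other cells, and Cd8b1 at 854 against 890 CPM.

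The Nkg7-led cells were not of 1 kind, and they were divided by Cd8b1 and then by the NK receptor list and the early genes Il2ra, Hes1 and Myl10. These divisions, and the genes named for them, were chosen after the values were seen, and the dividing genes are not results. The 89 cells with Cd8b1 had 1067 CPM of Nkg7, 470 CPM of Klf2 (a factor of egress-ready T cells) and 127 CPM of S1pr1 (the egress receptor). In these cells, 59 held at least 2 UMIs over S1pr1, Klf2 and Ccr7. Gzma was at 32.9 CPM there and Id2, an inhibitor of E proteins that innate lymphocytes and CD8 effector cells use, at 174 CPM.

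Of the 38 cells without Cd8b1, 12 held at least 3 UMIs of the NK receptor list, 6 in each library. Id2 was at 1299 CPM in these cells (in 10 of 12), Ccl5 at 3176 CPM (in 5, with 119 of 132 UMIs in 2 wild type cells, and 379 CPM without them), Klrd1 at 505 CPM, Ly6c2 at 746 CPM (in 9) and Cd7 at 578 CPM (in 11). Tcf7, which encodes the T-lineage factor TCF-1, was at 144 CPM, against 381 CPM in the cells with Cd8b1. All 12 held a CD3 UMI, with Cd3d at 890 CPM, so detected CD3 RNA did not separate them from T cells. Their list UMIs included Klra9 in 5 cells, Klrk1 in 5 and Klra3 in 4. Klra genes are near-identical copies, so which of them a UMI belongs to is uncertain.

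One of these 12 cells, from wild type, held 129 UMIs of lysozyme (Lyz2), 23 of Tyrobp, 14 of Fcer1g, 45 of Ifitm3, 54 of Plac8, 4 of Ccl5, no Nkg7 and 1 CD3 UMI. It held 96.3% of the Lyz2 UMIs, 67.6% of the Tyrobp UMIs and 62.5% of the Ifitm3 UMIs of all Nkg7-led cells. Lyz2, Tyrobp and Fcer1g are also genes of macrophages. Whether this barcode was a macrophage or a doublet was not tested.

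A further 12 cells without Cd8b1 held at least 2 UMIs over Il2ra, Hes1 and Myl10, genes of thymocytes before or during beta selection with NOTCH activity (Il2ra encodes CD25). Such cells were 9.45% of the Nkg7-led cells and 8.29% of the other kept cells, so this share hardly set the Nkg7-led cells apart. The levels below were not compared with those of such cells among the other kept cells. Only 1 of the 12 was wild type. Each held Nkg7 (782 CPM) and none held a UMI of Ccl5, Klrd1, Il2rb, Xcl1, Ly6c2 or Cd7. Cd3g stood at 3908 CPM, against 1300 CPM in the cells with Cd8b1, while Cd3d was at 1079 against 1086 CPM. Plac8 was at 2939 CPM (in all 12), Notch1 at 266 CPM, Gata3 at 281 CPM and Gzma at 281 CPM (in 6). Id2 was at 31.3 CPM. The remaining 14 cells had neither gene set, with Nkg7 at 1009 CPM, Ccl5 at 1665 CPM (in 5) and Id2 at 934 CPM (in 6). Of their 37 Id2 UMIs, 23 lay in 1 wild type cell, and of their 66 Ccl5 UMIs, 30 and 17 lay in 2 mutant cells. The cells joined by Nkg7 therefore differed by over 10-fold in Id2.

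**Figure D2:**
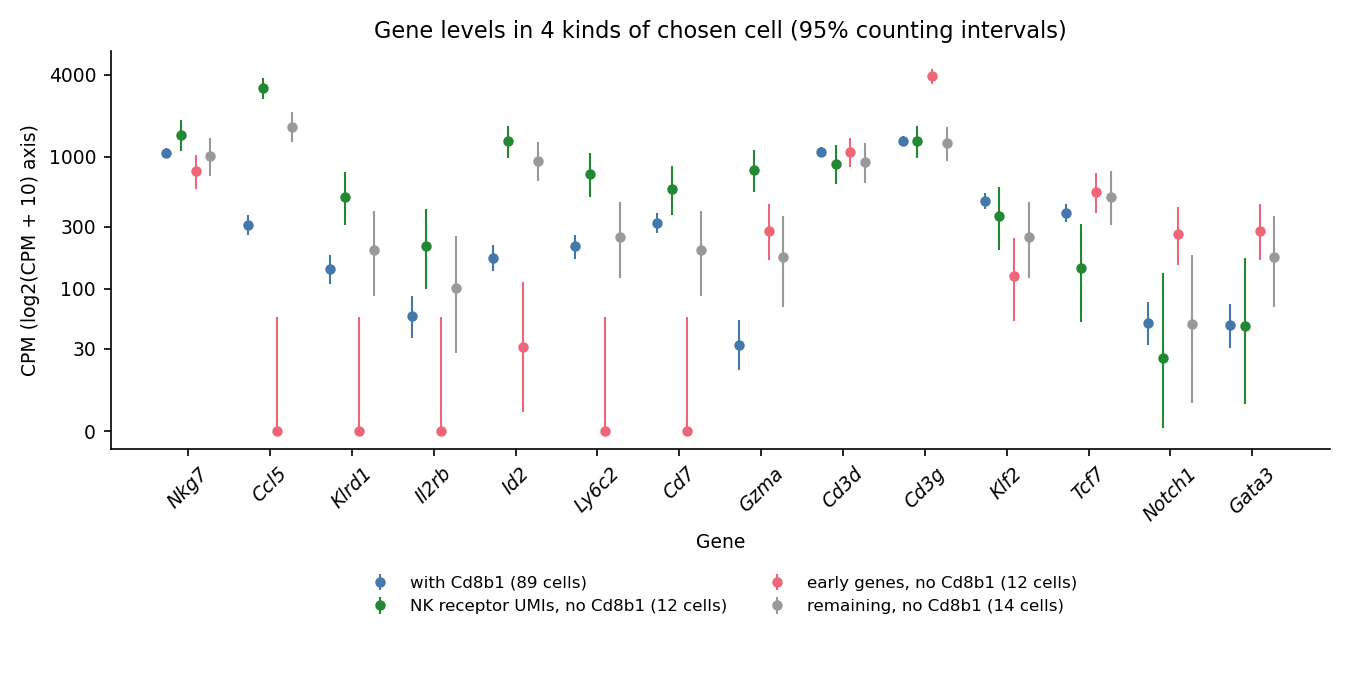
CPM of summed UMIs with exact Poisson 95% intervals, on a log2(CPM + 10) axis, for 14 genes in the 4 kinds of Nkg7-led cell. Cd3d lies close together in all 4 kinds, and Nkg7, which the rule used, runs from 782 to 1444 CPM, whereas Ccl5, Klrd1, Il2rb, Ly6c2 and Cd7 are at 0 in the cells with early genes.

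Ccl5 also chose cells without Nkg7, which belong to the kinds described above. Of the 16 cells with at least 3 Ccl5 UMIs, 8 held no Nkg7. These 8, the Lyz2-rich cell among them, held 87 Ccl5 UMIs, between 3 and 35 each. They held no UMI of Xcl1, Klrd1 or Il2rb, so Ccl5 alone chose them. Cd8b1 was detected in 5 of the 8 and the recombinase gene Rag1 in 3.

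Nkg7 was next placed among all kept cells, divided by marker UMIs after the data were seen, in classes that are not exclusive. In 142 mature cells with Cd8b1 and no Cd4 (at least 2 UMIs over S1pr1, Klf2 and Ccr7, none of Rag1 and Mki67), Nkg7 was at 454 CPM in wild type and 562 CPM in mutant. In 95 mature cells with Cd4 and no Cd8b1 it was at 66.8 and 27.7 CPM. For comparison, resting cells with at least 2 UMIs over Rag1 and Rag2, most of which should lack Nkg7, had 34.5 and 22.9 CPM, 7 of the chosen cells included. Cycling cells had 8.51 and 34.3 CPM. The part of free RNA in these low values was not tested. Ccl5 went the other way over both libraries, at 45.1 CPM in the mature Cd8b1 cells and 155 CPM in the resting cells, in 1.37% of the latter. Klrd1 (55.5 against 0.73 CPM), Il2rb (38.2 against 2.20 CPM) and Xcl1 (22.5 CPM against no UMI) were higher in the mature Cd8b1 cells, like Nkg7.

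At 1500 UMIs per cell, 39.6% of the mature Cd8b1 cells (exact interval 31.4% to 48.2%), 5.32% of the mature Cd4 cells (1.75% to 11.98%) and 1.46% of the resting cells (0.59% to 2.98%) held an Nkg7 UMI. Without thinning the shares were 54.9%, 10.5% and 3.52%, at median depths of 3599.5, 3143 and 2114 UMIs. The interval of the mature Cd8b1 cells lay above the other 2, whose intervals overlapped. The mature Cd8b1 class held 45 of the 127 Nkg7-led cells, 17 wild type and 28 mutant, and the mature Cd4 class held 1.

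In cells with at least 2 UMIs over Il2ra and Hes1, Nkg7 was at 46.7 CPM (28.1 to 72.9) in the 62 wild type cells and 130 CPM (110 to 153) in 217 mutant cells. The thinned share was 6.45% (1.79% to 15.7%) of the wild type and 15.3% (10.8% to 20.9%) of the mutant cells, at median depths of 4994.5 and 3452 UMIs. The intervals of the level did not overlap, and those of the share did. Over all kept cells Nkg7 was at 44.7 CPM in wild type and 116 CPM in mutant.

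**Figure D3:**
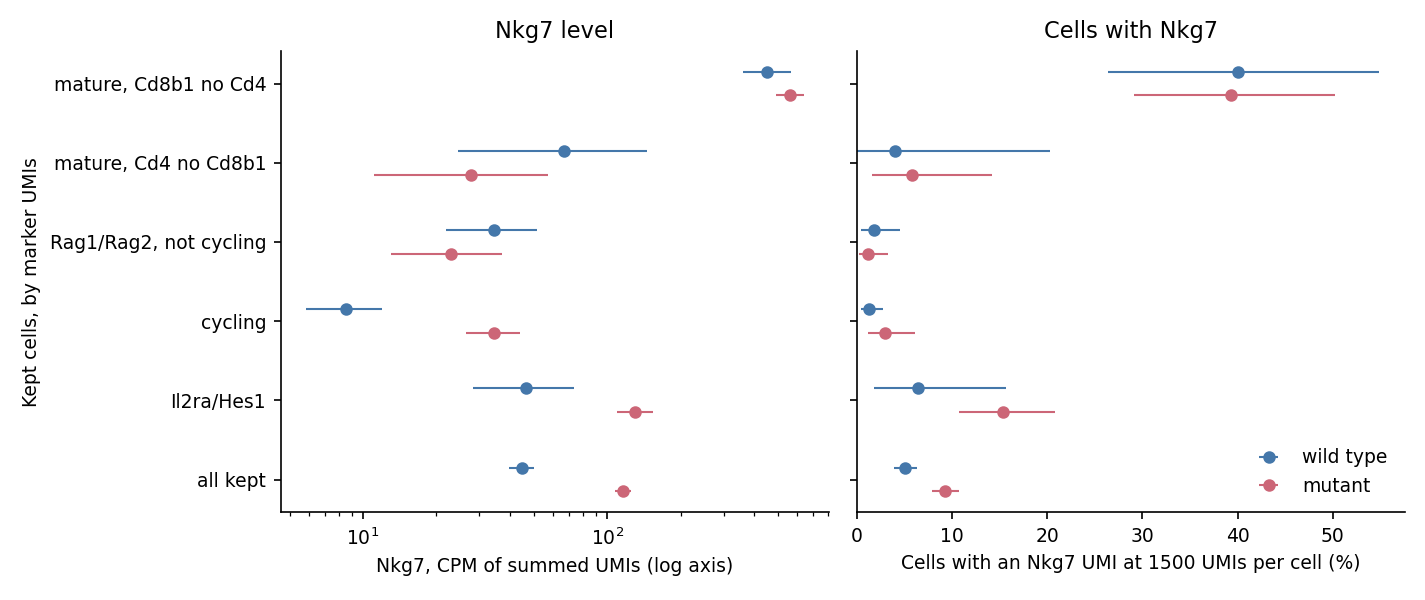
Nkg7 level (left, CPM of summed UMIs, log axis) and share of cells with an Nkg7 UMI after thinning to 1500 UMIs (right) in each class of kept cell and library, with exact 95% intervals. Mature cells with Cd8b1 and no Cd4 lie highest in both libraries, at 454 and 562 CPM.

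Against all other kept cells, the Nkg7-led cells had more RNA of mature T cells and of antigens of activated or memory T cells, and less of resting double-positive and cycling thymocytes. Of 4468 genes past the filter (a mean of the 2 groups of at least 25 CPM and at least 20 UMIs), 160 were higher by at least 2-fold with 5 CPM added (3.58%) and 427 were lower (9.56%). The rule used the same cells, so nothing is read from these counts. The median over all tested genes was -0.27 on the log2 scale. Scaling by the median ratio instead gave 248 higher and 245 lower, so the share of higher among the called genes went from 27.3% to 50.3%. Leaving ribosomal protein and mitochondrial genes out of the scaling gave 42.7%. Of the called genes, 84 higher and 251 lower ones were past 2-fold in each library alone.

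Of the mature single-positive genes, 10 of 12 were higher, none was lower and the median was 1.33 on the log2 scale. Within a library, 11 were higher in wild type and 5 in mutant. Klf2 was at 373 CPM in wild type and 430 CPM in mutant, against 56.5 and 179 CPM in the other cells. Ms4a4b, a membrane protein gene of mature T cells, was at 1004 and 684 CPM against 82.7 and 229 CPM. In each library the Nkg7-led cells were the higher group for both genes. In homing and egress, 15 of 20 genes passed the filter, 2 of them, Cxcr6 and Itgae, only through the Nkg7-led cells. Of the other 13, 6 were higher and 1 lower, with a median of 0.93. The tissue-homing receptor gene Cxcr6 had 20 UMIs in each library, at 94.3 and 55.8 CPM against 3.28 and 2.01 CPM (log2 4.72, 4.02 to 5.43). Itgae, the integrin CD103 that holds T cells in epithelia, was at 118 and 80.9 CPM against 5.46 and 8.19 CPM. Ccr9, a thymic and gut homing receptor gene, was at 228 CPM against 307 CPM.

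Among antigens of activated and memory T cells, 19 of 20 genes passed the filter, 7 of them only through the Nkg7-led cells. Of the 12 that passed on the level of the other cells alone, 7 were higher and 1 was lower, with a median of 1.11. Ly6c2 was at 245 and 223 CPM against 7.95 and 10.2 CPM (log2 4.68, 4.30 to 5.05) and was found in 37 cells. Cd7 was at 297 and 296 CPM against 22.5 and 43.0 CPM and was found in 63 cells, near-equal between the libraries. Cd52 was at 2833 CPM against 881 CPM and Vim at 703 against 218 CPM. S100a6 and S100a4, calcium-binding protein genes of effector cells, were at 168 and 78.9 CPM against 18.2 and 7.83 CPM. The lower gene was Anxa2, at 109 CPM against 551 CPM.

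The effector machinery itself was sparse. Of 13 cytotoxic granule genes, 5 passed the filter, 1 of them (Cst7) only through the Nkg7-led cells. Of the other 4, 1 was higher and none lower, with a median of 0.13. Ctsw, a protease gene of CD8 and NK cells, was at 288 CPM in wild type and 393 CPM in mutant against 23.1 and 64.9 CPM, and was found in 79 cells. Cst7, which encodes the cathepsin inhibitor cystatin F, was at 59.6 CPM against 5.73 CPM. Granzyme A (Gzma) was not higher: 126 CPM against 202 CPM (log2 -0.68, -1.03 to -0.34). Of the 2570 Gzma UMIs of kept cells, 20.5% lay in kept cells with at least 2 UMIs over Il2ra and Hes1. Those were 279 of the 3072 kept cells, at a median depth of 3720 UMIs against 2896.5 over all kept cells. Most Gzma UMIs thus lay elsewhere, and the part of these cells in the Gzma level was not tested. Of 12 cytokine and chemokine genes, 7 had no UMI and 1 passed, lymphotoxin beta (Ltb), at 585 CPM against 269 CPM.

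Among cytokine receptors, 6 of 18 passed, 1 of them (Il27ra) only through the Nkg7-led cells. Of the other 5, 1 was higher and 1 lower, with a median of 0.03. Il7r, the survival receptor of mature T cells, was at 140 CPM against 54.0 CPM. Il27ra was at 63.1 against 22.9 CPM, and the interferon gamma receptor gene Ifngr1 was lower, at 161 against 358 CPM. Il2ra was at 80.6 against 78.6 CPM. Of 17 innate-like lineage factors, 5 passed, and Runx3 and Id2 were higher. Runx3, the CD8-lineage and cytotoxic factor, was at 156 and 198 CPM against 29.9 and 36.6 CPM (log2 2.46, 2.13 to 2.77), in 55 cells. Id2 was at 391 and 234 CPM, and at 66.4 CPM in other cells of both libraries. T-bet (Tbx21) and Eomes had 6 and 10 UMIs in all and did not pass.

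Of 14 interferon-inducible genes, 13 passed the filter, 4 of them only through the Nkg7-led cells. Of the 9 that passed on the level of the other cells alone, 5 were higher and none lower, with a median of 1.08. The mature cells compared below had a higher summed level of this list, 3905 against 2938 CPM, so it was not particular to the Nkg7-led cells. Within a library, 11 of all that passed were higher in wild type but 2 in mutant, where the other kept cells had a summed level of 1728 CPM for this list against 678 CPM in wild type. Ifi27l2a was at 1616 CPM against 536 CPM. T cell receptor complex and coreceptor genes, by contrast, had a median of -0.26, near that of all genes, with none higher and 2 of 16 lower, Cd4 and Cd28. Cd3d was at 1059 CPM and Cd3e at 645 CPM, against 1058 and 607 CPM. T-lineage factors had 5 of 13 lower and none higher, with Tcf7 at 391 CPM against 907 CPM and Satb1 at 449 against 1042 CPM.

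Resting double-positive genes had 8 of 10 lower and a median of -1.92. Rag1 was at 59.6 CPM against 230 CPM, and Dntt, the nucleotide-adding polymerase gene of receptor assembly, at 189 against 862 CPM. Cycling genes had 11 of 14 lower with the same median, and Mki67 was at 52.6 against 148 CPM. Of the other lists, gamma-delta and type 17 genes had 2 of 15 past the filter and none higher. Invariant NKT genes had 7 of 14 past it, 2 of them only through the Nkg7-led cells, the higher Cxcr6 included. Of the other 5, Plac8 was higher and Sh2d1a lower, with a median of -0.28. Plac8 had 129 UMIs in cells with Cd8b1 and 247 in those without. Of the latter, 188 lay in the 12 early-gene cells and 54 in the Lyz2-rich cell. Intraepithelial precursor genes had 4 of 12, with Itgae higher but past the filter only through the Nkg7-led cells. Of the other 3, none was higher and Cd200 was lower. MYC and its activated genes had none past 2-fold of 16, and stress genes none of 7. The survival gene Bcl2 was at 475 CPM against 199 CPM, while Bcl2l1 was at 17.5 against 90.4 CPM. For B cell and antigen-presenting genes, which the rule limited, 4 of 5 were lower, and no regulatory T gene of 3 was past 2-fold. Macrophage and dendritic genes had 3 of 4 higher, Lyz2, Fcer1g and Tyrobp, the last 2 past the filter only through the Nkg7-led cells. The summed level of the list was 901 CPM in wild type and 103 CPM in mutant, against 75.8 and 208 CPM. The median of that list was 1.93, and -1.66 without the Lyz2-rich cell. Erythroid genes did not pass.

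**Figure D4:**
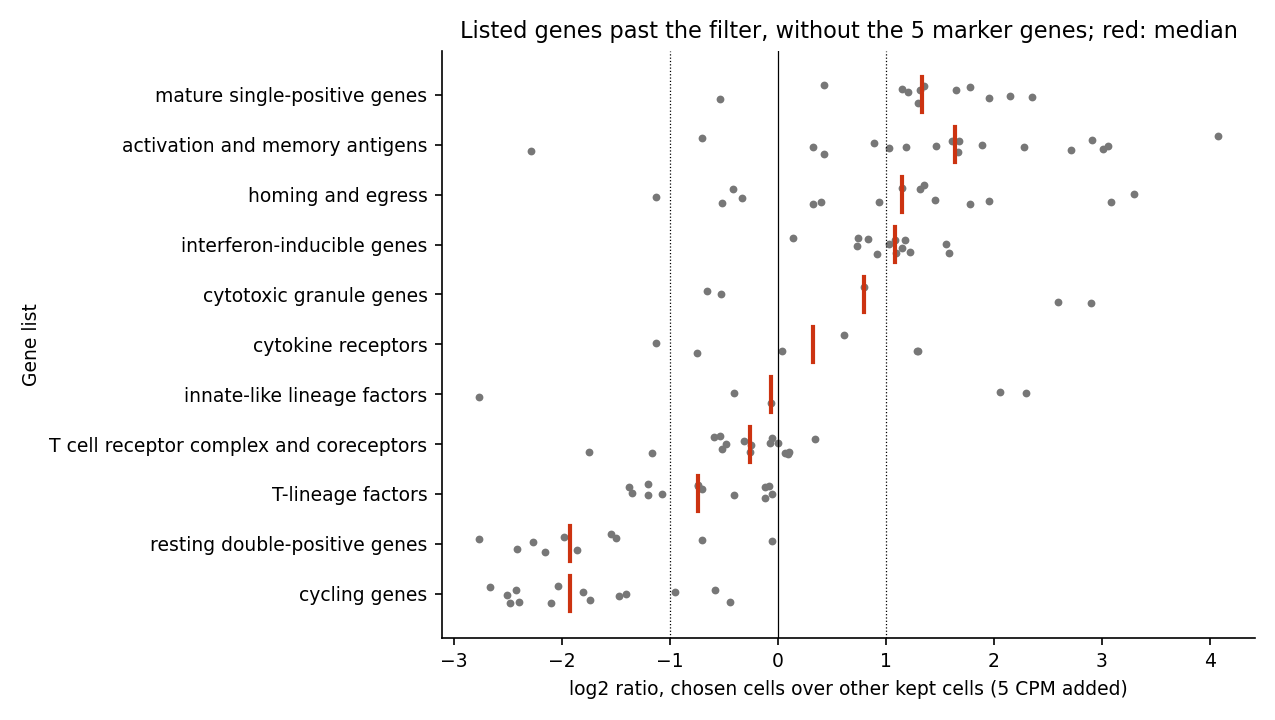
log2 ratio of Nkg7-led cells over other kept cells (5 CPM added) for each listed gene that passed the filter, without the 5 marker genes, with the list median in red and dotted lines at 2-fold. Genes that passed the filter only through the Nkg7-led cells are included in the points and medians. Without them the medians were 1.11 for activation, 0.93 for homing and 1.08 for interferon genes. Mature, activation, homing and interferon genes lie mostly to the right, and resting double-positive and cycling genes to the left.

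By the rule of largest ratios, the 20 highest genes also included Dapl1, Ly6c1, Glipr2, Lcn4, Amica1, Rgs1, Ahnak and Ctla2a. Of the 20, only Cd7, Ctsw, Ms4a4b and Runx3 passed the filter on the level of the other cells alone. The rest passed only through the Nkg7-led cells, so their rank describes the choice and the filter too. Dapl1 had 72 UMIs in 22 cells, at 222 CPM in wild type and 69.8 CPM in mutant against 5.61 and 9.20 CPM. Ly6c1 and Ly6c2 are near-identical genes and how UMIs were divided between them is not given in the sources used here. Ifitm3 and Fcer1g were also among them, with 62.5% and 31.8% of their UMIs in 1 cell. Among the lowest were the mitosis genes Pbk, Casc5, Esco2 and Spc25 and the tubulin genes Tubb2a and Tubb2b. Pbk had 5 UMIs, at 8.76 CPM against 130 CPM. Jchain had no UMI in the Nkg7-led cells and 845 UMIs in 0.65% of the other cells, so its ratio rests on few cells. Ctsl, H1fx, Ptms and Syt13 were also among the lowest.

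Mature cells are the nearest comparison, and 430 kept cells outside the Nkg7-led cells met the mature rule, 112 wild type and 318 mutant. This group included B cells, since Cd79a was at 124 CPM in it against 3.51 CPM and Ebf1 at 56.6 CPM against no UMI. Of 4122 genes tested, 95 were higher in the Nkg7-led cells (2.30%) and 68 lower (1.65%), with a median of 0.02. Ly6c2 was at 231 against 24.1 CPM (log2 3.26, 2.73 to 3.83). Tmem121 was at 80.6 against 8.46 CPM (log2 3.25, 2.34 to 4.27), but 42 of its 46 UMIs were mutant, with 18.9 CPM in wild type and 117 CPM in mutant Nkg7-led cells. Rag1, Mki67, Lyz2, Ifitm3, Fcer1g and Hist1h2ap were also among the 8 highest, and the mature rule itself had removed Rag1 and Mki67 from the comparison cells. Tspan32 was lower, at 89.4 against 331 CPM (log2 -1.89, -2.33 to -1.47). So were Cd200, Ikzf4, Mllt3, H2-Ab1 and Izumo1r, a folate receptor family gene, the last at 35.1 against 122 CPM. The limits on antigen-presenting and regulatory T genes were set for the Nkg7-led cells only. Those 2 lists summed to 1469 and 592 CPM in the mature cells, against 71.9 and 247 CPM. The part of these limits in the lower genes was not tested. Klf2 (408 against 661 CPM) and S1pr1 (107 against 264 CPM) were used to choose the mature cells, so nothing is read from them. Ifi27l2a, which was not used, was at 1616 against 2472 CPM. By list sums, cytokines and chemokines were at 626 CPM against 785 CPM in the mature cells. Mature single-positive genes (3150 against 3815 CPM) and homing and egress genes (1951 against 2266 CPM) include the choosing genes. None of these lists was particular to the Nkg7-led cells. Activation and memory antigens (9886 against 7278 CPM) and cytotoxic granule genes (1008 against 585 CPM) were higher in the Nkg7-led cells.

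Within the 142 mature Cd8b1 cells without Cd4, the 45 Nkg7-led cells were set against the other 97, of which 66.0% had no Nkg7 UMI. Their median depths were 4422 and 3352 UMIs. Of 3201 genes, 50 were higher (1.56%) and 151 lower (4.72%), with a median of -0.06. Dapl1 had 40 UMIs against 6, at 196 against 16.1 CPM (log2 3.60, 2.36 to 5.13), and Ly6c2 had 26 against 7, at 127 against 18.8 CPM (log2 2.76, 1.52 to 4.21). Itgae was at 152 against 43.0 CPM, Ctsw at 524 against 199 CPM (log2 1.40, 0.96 to 1.85) and Runx3 at 269 against 140 CPM (log2 0.95, 0.37 to 1.52). Cd8b1 was at 1288 against 926 CPM. Klf2 (632 against 599 CPM), S1pr1 (176 against 207 CPM), Il7r (147 against 140 CPM) and Id2 (181 against 164 CPM) had ratio intervals that included 0 on the log2 scale. Lower genes included Izumo1r, with 2 UMIs against 52, Hist1h2ap, with 6 against 129, and Marcksl1, with 2 against 33. The limits on antigen-presenting and regulatory T genes were not set for the other 97 cells, and their part in the lower genes was not tested. Klf2 and S1pr1 were used to choose both groups. Dapl1 and Ly6c2, at 16.1 and 18.8 CPM in the other 97 cells, passed the filter only through the Nkg7-led cells. They were also picked as the highest ratios in the same cells, so their ratios describe the choice and the filter too. Itgae and Ctsw passed on the level of the other 97 cells alone and were higher in the Nkg7-led cells of this class. These genes too were named after their values were seen.

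Between the libraries, the mutated enhancer sites lie outside the transcript of Myc, so the UMIs cannot check the genotype labels. Myc had 14 UMIs in 7 wild type Nkg7-led cells (66.0 CPM) and 10 UMIs in 8 mutant ones (27.9 CPM). The log2 ratio of mutant over wild type was -1.24 (-2.57 to 0.03), and it was -0.96 (-1.26 to -0.66) in the other kept cells. In the Nkg7-led cells a difference was not detectable at this depth. Of 3209 genes tested, 207 were higher in mutant (6.45%) and 43 lower (1.34%), with a median of 0.14. The counting interval of the single gene lay on 1 side of 0 for 125 of the 207 and 32 of the 43, and included 0 for the rest. These intervals were not adjusted for the number of genes tested, and the genes were picked by the same ratios. The 125 and 32 are thus not counts of genes that differ beyond counting error. Scaling by the median ratio gave 144 higher and 82 lower, so that the share of higher among the called genes went from 82.8% to 63.7%.

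The genes higher in mutant were led by early thymocyte genes. Hes1, a NOTCH target, had 1 UMI in wild type and 41 in mutant (log2 4.60, 2.04 to 9.94), Il2ra 2 and 44 (3.70, 1.76 to 6.79), and Myl10 6 and 76 (log2 2.91). All 5 early thymocyte genes that passed this filter were higher in mutant, with a median of 2.70. The other kept cells went the same way, at 2.17, 2.50 and 1.77 for the 3 genes. The 12 early-gene cells without Cd8b1 described above held 36 of the Hes1, 43 of the Il2ra and 72 of the Myl10 UMIs, and 11 of the 12 were mutant. Cells with Cd8b1 held only 6 Hes1 UMIs and 3 Il2ra UMIs, all in mutant. Hes1 was detected in 1 wild type and 12 mutant Nkg7-led cells, Il2ra in 1 and 10, and Myl10 in 2 and 14. The sums alone do not tell more cells of a kind from more RNA per cell, and the part of each was not tested.

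Ifi202b, an interferon-inducible gene of a family with near-identical copies, had 1 and 33 UMIs (log2 4.29, 1.71 to 9.63) and differed in the other kept cells too (8.48, 6.62 to 11.5). Ddx1, a helicase gene, had 1 and 19 UMIs and was near 0 in the other cells (0.09, -0.13 to 0.31). Ccdc109b and Tmem121 were also higher. Ly6c1 had 2 and 42 UMIs (3.64, 1.69 to 6.73), and its summed level with Ly6c2 was 255 CPM in wild type and 340 CPM in mutant (0.42, -0.05 to 0.91). The sum of the pair therefore differed by less than the counting error.

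Lower in mutant were Lyz2 (131 and 3 UMIs) and Tyrobp (23 and 11 UMIs). All 23 wild type Tyrobp UMIs lay in the Lyz2-rich cell, and without that cell Tyrobp turned to 2.84 with 5 CPM added. Dapl1 had 47 and 25 UMIs, at 222 and 69.8 CPM (log2 -1.67, -2.43 to -0.94), each in 11 cells, while the other kept cells were at 0.71 (0.08 to 1.36). In Nkg7-led cells with Cd8b1 its counts were 47 and 19. Klra9 had 16 and 5 UMIs, with the mutant UMIs in 1 cell. Tbc1d1, a Rab GTPase activator gene, had 16 and 7 UMIs (-1.95, -3.47 to -0.59). Atxn2l, Apoa1bp and Fam50a were lower, each with 14 to 18 wild type UMIs against 7 to 9 mutant ones. Of the lists, the 5 tested NK receptor genes had 2 lower and none higher, and the mature single-positive list had none of 12 past 2-fold, with a median of 0.06. Within cells with Cd8b1, 126 genes were higher and 33 lower in mutant.

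**Figure D5:**
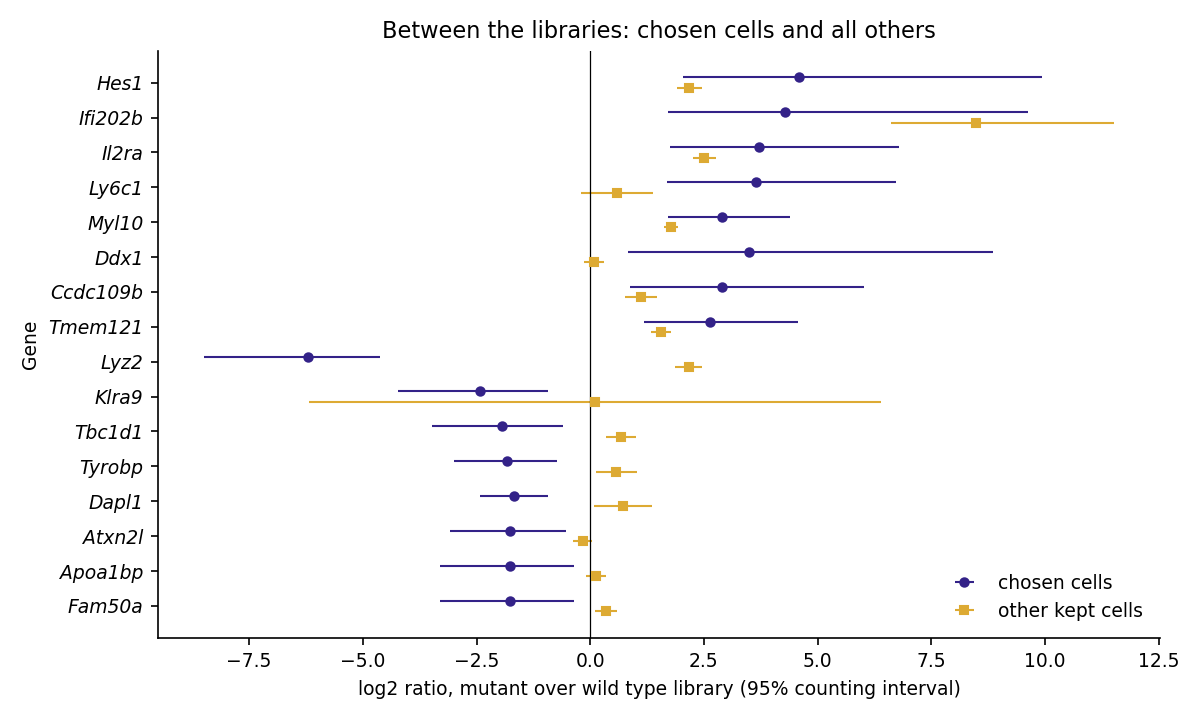
log2 ratio of mutant over wild type for the 16 genes with the largest differences among Nkg7-led cells (circles) and the same ratio in the other kept cells (squares), with 95% counting intervals. Hes1, Il2ra and Myl10 lie to the right in both, and for Lyz2, Tbc1d1, Tyrobp, Dapl1 and Fam50a the 2 intervals lie on opposite sides of 0.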

How the data were processed

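Single-cell RNA of thymocytes was measured with 10x Chromium 3' v2 reagents in 2 libraries, per the labels' protocols. The authors deposited raw UMI counts per barcode for 27933 gene symbols. The submitters' processing notes name Cell Ranger, of unstated version, and mm10. The wild type table held 1346 barcodes with 6638880 UMIs and the mutant one 1737 barcodes with 6364506, and the lowest totals were 1781 and 1416. 11 barcodes were left out by the filter, and 1 barcode sequence was shared by the libraries. Scrublet (scanpy 1.11.5, expected rate 4%) called 8 kept cells (0.26%), 2 of them Nkg7-led cells, and these were kept, so doublets remain.

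UMIs were summed per group and divided by the group total (CPM), with exact Poisson intervals, exact conditional intervals of ratios, Clopper-Pearson and Newcombe intervals (scipy 1.17.1, 95%). Past the fold means a log2 ratio with 5 CPM added of at least 1 or at most -1, and printed ratios of single genes have nothing added. There was no test. The computation was tested on simulated data. Members and 25 gene lists were chosen with earlier results of these data known. Named genes were the 6 with most UMIs of each list and the 20 highest and 12 lowest ratios, or the 8 highest and lowest in the other comparisons, without the genes of the rule and mitochondrial, ribosomal protein, sex-linked, haemoglobin and unnamed genes. Genes named for the kinds of cell, for the mature Cd8b1 cells and for contrast were chosen after their values were seen, as were these classes. Thinning drew 1500 UMIs per cell, and 97 mutant cells were too shallow. Alternatives in pseudocount, filter, scaling, library and rule are in the closing section. No replicate exists to pair or to leave out. The result of 1 gene is not reported here.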

Additional observations from a re-analysis of the deposited data

Results flagged for a closer look

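Lyz2, the lysozyme gene, had opposite ratios of Nkg7-led cells over other kept cells in the libraries: 5.06 on the log2 scale in wild type and -3.31 in mutant, with counting intervals that did not include 0. The difference between the libraries was not tested. In wild type 131 UMIs lay in 3 cells, 129 of them in 1, and in mutant 3 UMIs lay in 2 cells.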

How the results depend on the processing

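With 1 library per genotype, every value lacks a replicate, and depth limits single genes to a few UMIs per cell. No paired analysis was possible because each genotype had 1 library. The shares of Nkg7-led cells moved with the rule: at least 2 marker UMIs gave 4.996% of wild type and 7.22% of mutant cells (difference 2.22 points), at least 5 gave 2.31% and 2.66%, cells thinned to 1500 UMIs gave 1.42% and 2.51%, and no exclusion by other genes gave 6.99% of mutant cells (difference 2.37 points). The share with Cd8b1 was 56.7% when thinned. Genes higher in Nkg7-led cells numbered 96 with a mean of at least 50 CPM, 258 with at least 10 CPM, 248 with median-of-ratios scaling, 277 in the wild type library alone and 102 in the mutant library alone. Genes lower numbered 240 with 20 CPM added, 239 with at least 50 CPM, 699 with at least 10 CPM, 245 with median-of-ratios scaling and 772 in wild type alone. Genes higher in mutant numbered 89 with 20 CPM added, 86 with at least 50 CPM and 126 in cells with Cd8b1. Genes lower in mutant numbered 19 with 20 CPM added, 23 with at least 50 CPM, 75 without ribosomal protein and mitochondrial genes in the scaling, 82 with median-of-ratios scaling and 22 with at least 5 marker UMIs. Against mature cells, 20 CPM added gave 61 higher and 28 lower, and within mature Cd8b1 cells 18 and 63. The macrophage and dendritic median turned to -2.28 in mutant alone, -0.33 with at least 5 marker UMIs and -1.66 without the Lyz2-rich cell. Tyrobp between the libraries turned to 2.98 with at least 5 marker UMIs, 2.53 in cells with Cd8b1 and 2.84 without the Lyz2-rich cell, and Lyz2 to 0.26 in cells with Cd8b1. Fewer genes or cells tested is part of the filter, library and rule settings, and for the others the cause was not tested. The settings of cells with Cd8b1, without the Lyz2-rich cell and of both mature comparisons were chosen after seeing the data.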
